A study of Drosophila melanogaster with 2 samples.

Results

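The genes described here make the steroid hormone ecdysone and juvenile hormone in insects. They are 7 genes, chosen by symbol from the 14284 in the count tables: nvd, spok, phm, dib, sad and shd for ecdysone and its active form, and jhamt for juvenile hormone. They were picked after lower values in the brat RNAi library had been seen. All values that compare the libraries are therefore descriptions. The choice was made for lower values, yet dib was not lower.

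RNA was sequenced from 1 brat RNAi library and 1 control library of sorted cells from the brains of Drosophila melanogaster larvae late in the third instar. The labels call the cells type II neuroblasts, a class of neural stem cells, with their 24 h progeny. For flies of both groups the labels give UAS-dicer2, and they name wor-Gal4 and asense-Gal4 as drivers. They also give the membrane marker UAS-CD8::GFP, and tub-Gal80ts, which holds Gal4 off at low temperature. The brat RNAi group also had the hairpin line VDRC 105054, and the control group had no hairpin. Animals grew at 18 °C, were moved to 29 °C, and were dissected 24 h later. The labels do not say how many brains entered each library, or whether the ring gland was taken off. With 1 library a group there is no replicate check, no difference was tested, and the values describe these libraries rather than the genotypes.

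Ecdysone is made from dietary cholesterol in the prothoracic gland by a chain of enzymes named after the Halloween mutants of Drosophila. Peripheral tissues then convert it to 20-hydroxyecdysone, whose pulses time moults and metamorphosis. Juvenile hormone comes from the corpora allata and keeps moults larval. In flies the prothoracic gland, the corpora allata and the corpora cardiaca are fused in the ring gland, which lies against the larval brain.

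Gene counts (read pairs assigned to a gene) summed to 15236504 in the brat RNAi library and 16566265 in the control library. Below, a normalised count is a count divided by the library's size factor, 0.913 for brat RNAi and 1.09 for control. A log2 ratio is that of brat RNAi over control. Each comes with a 95% exact (Clopper-Pearson) counting interval in parentheses. Such intervals cover counting error only, since a read pair is not a molecule. The targeted gene, brat, had 6312 counts in the brat RNAi library and 12210 in the control library, a log2 ratio of -0.69 (-0.73 to -0.65), the direction its label gives. All 14 markers of the type II lineage fixed for checking were measured. They included the scaffold gene mira, with 29722 counts in brat RNAi and 26290 in control cells, and grainyhead (grh), with 4442 and 2241 counts in the same order. The median log2 ratio of the 14 was 0.46, with 12 above 0 and 2 below. Only grh was at least 2-fold higher, so it does not stand for the list.

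Of the 7 synthesis genes, 5 had counts that summed to at least 20 over both libraries and are called measured. Of these, phm, sad, spok and jhamt stood lower in brat RNAi by 2-fold or more, with an interval that excluded 0. Among all 9142 measured genes, 4.48% were lower by that rule and 1.15% higher. Since the genes were picked for low ratios, nothing is read from this gap. Below a mean normalised count of 100, where sad, spok, jhamt and dib lie, 15.6% of measured genes were lower by the same rule. At or above that level, where phm lies, the share was 0.548%. The median log2 ratio was -2.11 over the 5 measured synthesis genes and 0.00398 over all measured genes. In bulk RNA, fewer cells of a type and less RNA per cell cannot be told apart.

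**Figure D1:**
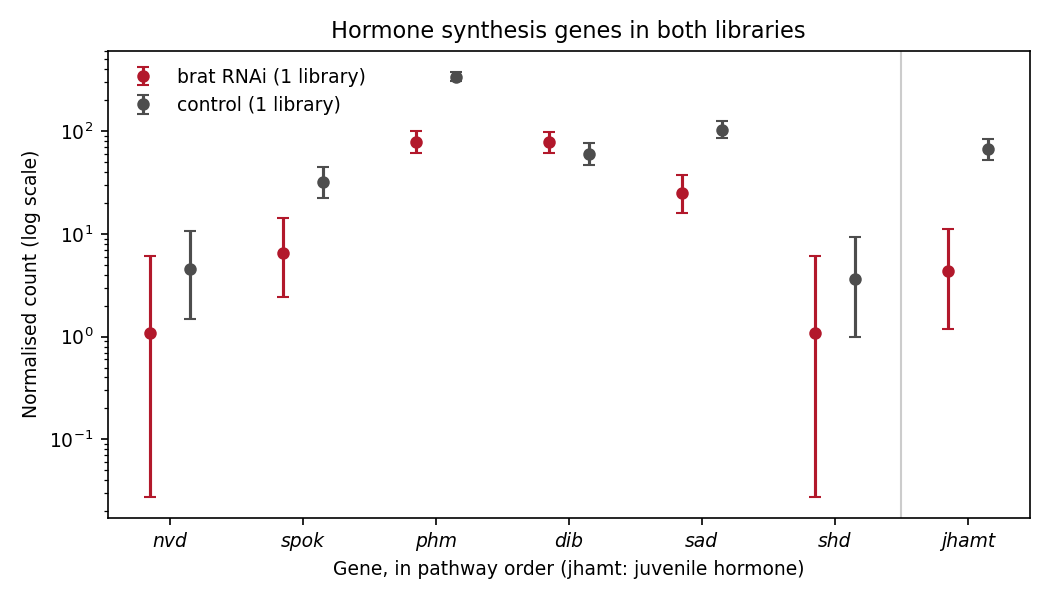
Normalised counts (log scale) of the 7 synthesis genes in the brat RNAi library (red) and the control library (grey), with 95% exact Poisson intervals. The values of dib lie side by side, at 77.7 in brat RNAi and 60.3 in control, while those of spok, phm, sad and jhamt lie apart with no overlap of the bars.

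The first step is made by neverland (nvd), a Rieske oxygenase that turns cholesterol into 7-dehydrocholesterol. It had 1 count in the brat RNAi library and 5 in the control library, a log2 ratio of -2.06 (-7.62 to 1.10). That is too few to give a direction. The next known enzymes act in a set of steps called the black box, among them spookier (spok), the larval cytochrome P450 of the prothoracic gland. It had 6 counts in brat RNAi and 35 in control, or 6.57 and 32.0 normalised counts in the same order. The log2 ratio of spok was -2.28 (-3.82 to -1.02).

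Phantom (phm) is a P450 that hydroxylates the sterol side chain after the black box. It was the gene with the most counts of the set in either library. Counts were 72 in brat RNAi and 372 in control, which gives 78.8 and 339.8 normalised counts in the same order. Its log2 ratio was -2.11 (-2.49 to -1.74), or 4.31-fold lower in brat RNAi. The symbol differs only by case from Phm, an enzyme of neuropeptide amidation, which had 784 counts in brat RNAi and 1162 in control cells, at -0.31 (-0.44 to -0.17). In the current annotation phm is named phtm.

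Disembodied (dib), the mitochondrial P450 that acts after phantom, broke the pattern. It had 71 counts in the brat RNAi library and 66 in the control library, or 77.7 and 60.3 normalised counts in the same order. The log2 ratio was 0.37 with an interval that includes 0 (-0.14 to 0.87). Shadow (sad), the mitochondrial P450 that acts next and yields ecdysone, was low again. It had 23 counts in brat RNAi and 113 in control, or 25.2 and 103.2 normalised counts in the same order. The log2 ratio of sad was -2.04 (-2.75 to -1.38), close to that of phm.

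Shade (shd) is the P450 of peripheral tissues, such as fat body and gut, that makes 20-hydroxyecdysone. It had 1 count in brat RNAi and 4 in control, a log2 ratio of -1.74 (-7.36 to 1.60), which gives no direction. The enzyme of the other hormone, juvenile hormone acid methyltransferase (jhamt), acts late in its synthesis and marks the corpora allata. It had the lowest ratio of the 7, with 4 counts in brat RNAi and 73 in control, or 4.38 and 66.7 normalised counts in the same order. The log2 ratio of jhamt was -3.93 (-5.84 to -2.51), or 15.2-fold lower in brat RNAi.

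**Figure D2:**
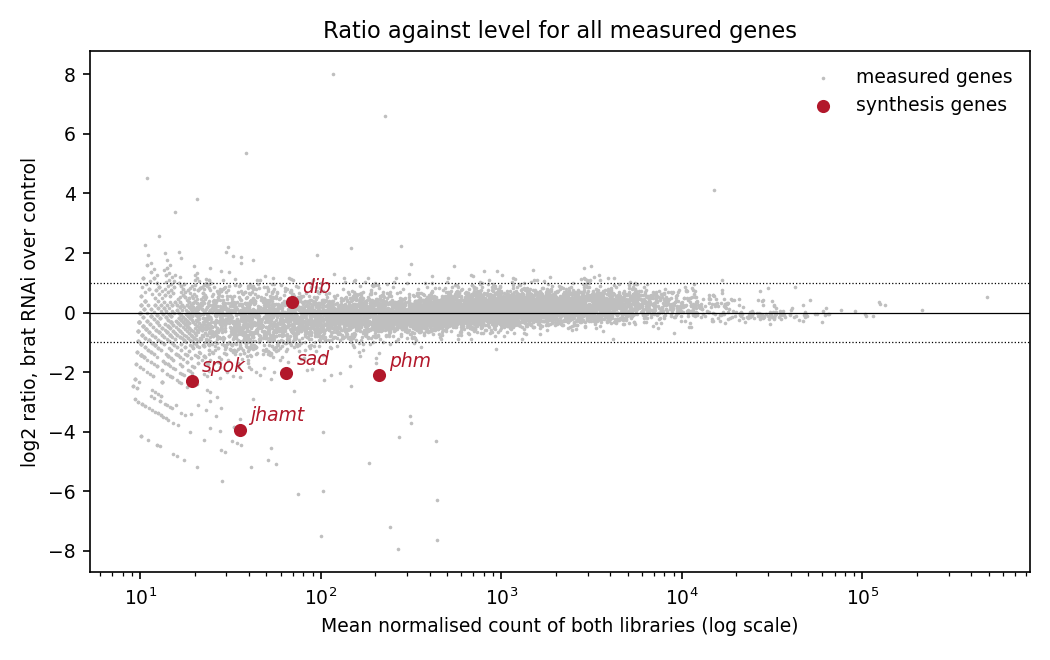
Log2 ratios, brat RNAi over control (vertical), against the mean normalised count of both libraries (horizontal, log scale) for 9142 measured genes (grey), with the 5 measured synthesis genes in red and dotted lines at a 2-fold difference. A count of 0 was set to a floor of 3 counts. Only dib, of the red points, lies above 0, and grey points spread most below 0 at low levels.

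The summed counts of the 7 genes were 178 in brat RNAi and 668 in control, which is 11.7 and 40.3 per 1000000 gene counts in the same order. The log2 ratio of the sum was -1.65 (-1.89 to -1.41). It depends on which gene is left out: without dib it was -2.23 (-2.54 to -1.93), and without phm -1.22 (-1.55 to -0.90). The makeup of the sum shifted accordingly. Of the 178 counts in brat RNAi, dib held 39.9% (32.6 to 47.5), against 9.88% (7.72 to 12.4) of the 668 in control. The share of jhamt was 2.25% (0.616 to 5.65) in brat RNAi and 10.9% (8.66 to 13.5) in control. The share of phm was 40.4% (33.2 to 48.0) in brat RNAi and 55.7% (51.8 to 59.5) in control.

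Levels of different genes are compared here only as counts per kilobase of transcript and per 1000000 gene counts, with lengths from BDGP6. In brat RNAi the order was dib (2.36), phm (2.25), sad (0.851), jhamt (0.252), spok (0.223), nvd (0.0381) and shd (0.0240). In control it was phm (10.7), jhamt (4.23), sad (3.85), dib (2.02), spok (1.20), nvd (0.175) and shd (0.0884). Going down the order in brat RNAi, phm lay above sad and sad above jhamt beyond counting error. Within that error were dib and phm, with a ratio of 1.05 (0.745 to 1.48), jhamt and spok, spok and nvd, and nvd and shd. In control, jhamt and sad (1.10, 0.808 to 1.49) and nvd and shd were within counting error, and the other neighbours differed beyond it. So phm stood 2.53-fold above the next gene in control, while dib and phm shared the top in brat RNAi.

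The ratio of 2 genes' counts inside a library needs no scaling between libraries, and 17 such pairs were computed. There were 0.986 dib counts for each phm count in brat RNAi, against 0.177 in control. The ratio of these ratios was 5.54 (95% exact conditional interval 3.57 to 8.63). For dib over sad it was 5.25 (2.93 to 9.69), and for dib over spok 6.22 (2.38 to 19.3). By contrast, sad over phm gave 1.05 (0.599 to 1.79) and spok over phm 0.886 (0.294 to 2.24). Both of these intervals include 1, and that for spok spans several-fold. Set against genes other than the 7, dib gave 2.26 (1.25 to 4.15) over sro, 5.92 (2.62 to 14.8) over Ptth and 0.907 (0.634 to 1.30) over Npc1a, genes described further on. The widest shift was dib over jhamt, at 19.4 (6.70 to 77.1). The count ratio of jhamt to phm was 0.0556 in brat RNAi and 0.196 in control, a ratio of 0.284 (0.0730 to 0.795). For jhamt over sad the ratio was 0.271 (0.0654 to 0.837), and for jhamt over spok 0.323 (0.0628 to 1.46).

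**Figure D3:**
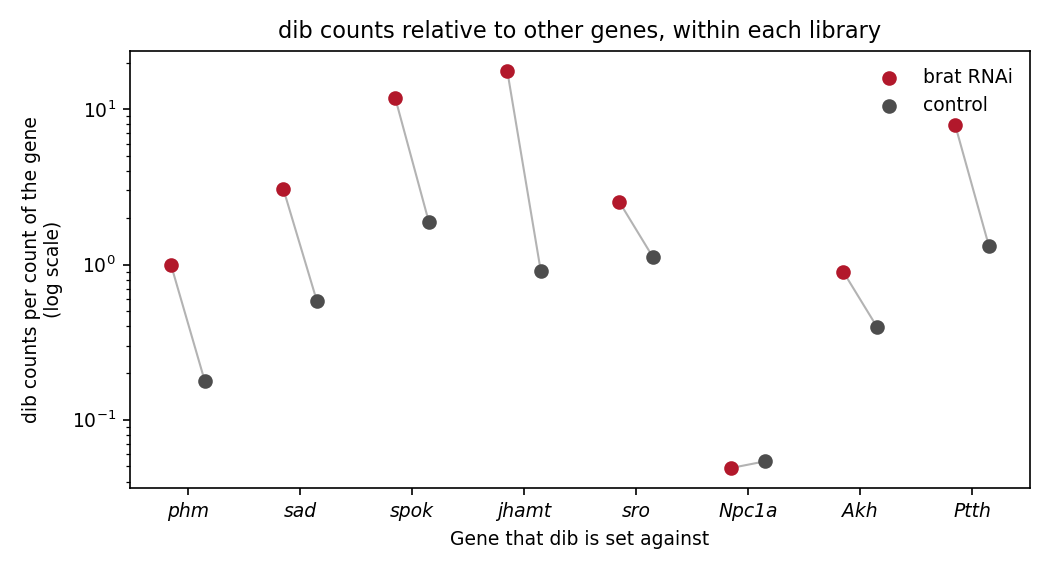
Counts of dib per count of 8 other genes (log scale) within the brat RNAi library (red) and the control library (grey), joined by a line for each gene. Against phm, sad, spok, jhamt, sro, Akh and Ptth the brat RNAi point is the higher one, for example 0.986 and 0.177 for phm, while for Npc1a both points lie near 0.05 (0.0489 and 0.0539).

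Gene models bear on dib and sad. In BDGP6, 400 of the 1975 exonic bases of dib (20.3%) overlap exons of wit, a receptor gene on the opposite strand. The counts of wit were 111 in brat RNAi and 119 in control, at 0.16. For sad the overlap with CG6962, also on the opposite strand, was 53 of 1773 exonic bases (2.99%). CG6962 had 1239 counts in brat RNAi and 1269 in control, a log2 ratio of 0.23. The strand setting of the counting is not given in the sources used here, so reads of such pairs cannot be told apart in the shared bases, and the part of this in the dib value was not tested. The models of phm, spok, shd and jhamt overlapped no other gene, and that of nvd shared no exonic base with one.

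Genes next to the synthesis genes in BDGP6 are given by their median log2 ratio. The 10 measured genes nearest to phm, 5 on each side, had a median log2 ratio of 0.01, and those around sad 0.15, with none at least 2-fold lower in either set. The 5 measured neighbours of spok, all on one side, had a median of 0.03. Around jhamt the median was -0.20 and 1 of 10, CG42266, was at least 2-fold lower. Around dib it was -0.23, also with 1 of 10 lower, Faa. Around nvd it was -0.08. The neighbours of shd lay furthest from 0, with a median of -0.64, none at least 2-fold lower and 1 higher.

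In the authors' deposited table, which compares 1 library with 1, the adjusted p was 0.00198 for phm, 0.0278 for jhamt and 0.364 for sad. For dib, spok, nvd and shd the authors' deposited table has an adjusted p of 1. These p-values come from the contrast used to pick the genes and carry no replicate error.

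Other genes of ecdysteroid synthesis, transport and breakdown did not share the low ratios as a group. Of 12 such genes in the table, 9 were measured, 1 was at least 2-fold higher and none at least 2-fold lower. Their median log2 ratio was -0.06, and -0.18 after the correction for transcript length and level described further on. Shroud (sro), a dehydrogenase of the black box found mainly in the prothoracic gland, had 28 counts in brat RNAi and 59 in control. Its log2 ratio was -0.81 (-1.52 to -0.14), and -0.43 (-1.13 to 0.24) after correction. Set against phm within each library, sro stood 2.45-fold (1.40 to 4.21) higher in brat RNAi. The member called higher was Cyp6t3, a P450 linked to the black box, with 153 counts in brat RNAi and 75 in control, at 1.29 (0.88 to 1.71).

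Spook (spo), the embryonic and adult relative of spok, had 5 counts in brat RNAi and 3 in control. Cyp18a1, a P450 that breaks ecdysteroids down, had 3 counts in brat RNAi and 12 in control, at -1.74 (-4.20 to 0.15). Neither was measured. The most abundant genes of the list by normalised count were the ecdysone importer gene Oatp74D and ecd (ecdysoneless), which is needed for ecdysone production and also acts in other cells. Oatp74D was at 0.19 (0.10 to 0.28), with 1869 counts in brat RNAi and 1964 in control, and at -0.11 (-0.20 to -0.02) after correction. The log2 ratio of ecd was -0.11 (-0.22 to -0.01), with 1309 counts in brat RNAi and 1699 in control, and -0.18 after correction. The sterol transporter gene Npc1a, needed in the prothoracic gland but active in many cells, was at 0.51 (0.40 to 0.62), with 1452 counts in brat RNAi and 1224 in control. Among the rest, the sterol-binding protein gene Npc2a was at -0.82, Start1 at -0.29, and dare, which supplies electrons to mitochondrial P450 enzymes, at 0.22. Total count scaling lowered every log2 ratio by 0.14 and upper quartile scaling by 0.11. The sign of Oatp74D turned only after correction, to -0.11, so it has no stable direction.

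Genes of the mevalonate pathway, of juvenile hormone breakdown and of its response formed a further list, to be read beside the same shares over all genes. Of 12 in the table, 10 were measured, 1 was at least 2-fold lower and none higher, with a median of -0.04 and -0.02 after correction. The lower one was Jheh3, an epoxide hydrolase gene, with 12 counts in brat RNAi and 46 in control, at -1.68 (-2.73 to -0.74). Its relative Jheh2, the most abundant of the list, was at 0.74 (0.67 to 0.80), with 4444 counts in brat RNAi and 3193 in control. The response gene Kr-h1 was at 0.50 (0.41 to 0.59). Farnesyl diphosphate synthase (Fpps), which supplies a precursor of juvenile hormone, was at -0.46 (-0.62 to -0.30).

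Regulators with known roles in the prothoracic gland were mostly above 0. Of 16 in the table, 14 were measured, with 2 at least 2-fold higher and 1 lower, and 13 of the 14 were above 0. With total count or upper quartile scaling 12 were above 0, and likewise after correction. The median was 0.46, and 0.18 after correction. The type II lineage markers were alike, with 12 of 14 above 0 and medians of 0.46 and 0.23 in the same order. With total count or upper quartile scaling 11 of these markers were above 0. After correction 10 were, and grh was at 0.91. Among all measured genes 49.6% were below 0, and by the 2-fold rule 1.15% were higher and 4.48% lower. The lean above 0 is thus not particular to the regulators. Most of these regulators act in many tissues. One largely restricted to the gland is ouija board (ouib, listed as CG11762), a zinc finger activator of spok, with 5 counts in brat RNAi and 20 in control. Its log2 ratio was -1.74 (-3.51 to -0.28), and -1.24 after correction, where the upper limit of the interval was 0.22. The POU factor gene vvl had 1062 counts in brat RNAi and 482 in control, at 1.40 (1.24 to 1.56), and also stands in the list of trachea and epidermis. The ecdysone-induced factor gene Eip74EF had 188 and 109 counts in the same order, at 1.05 (0.70 to 1.40), and 0.82 after correction. The most abundant, br and Smox, were at 0.57 and 0.76. The receptor gene torso (tor), through which the neuropeptide PTTH drives the gland, had 5 counts in brat RNAi and 12 in control. The hormone receptor genes EcR and usp, read in responding cells, were at 0.48 and 0.22, and after correction at 0.08 and 0.09 with intervals that include 0.

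**Figure D4:**
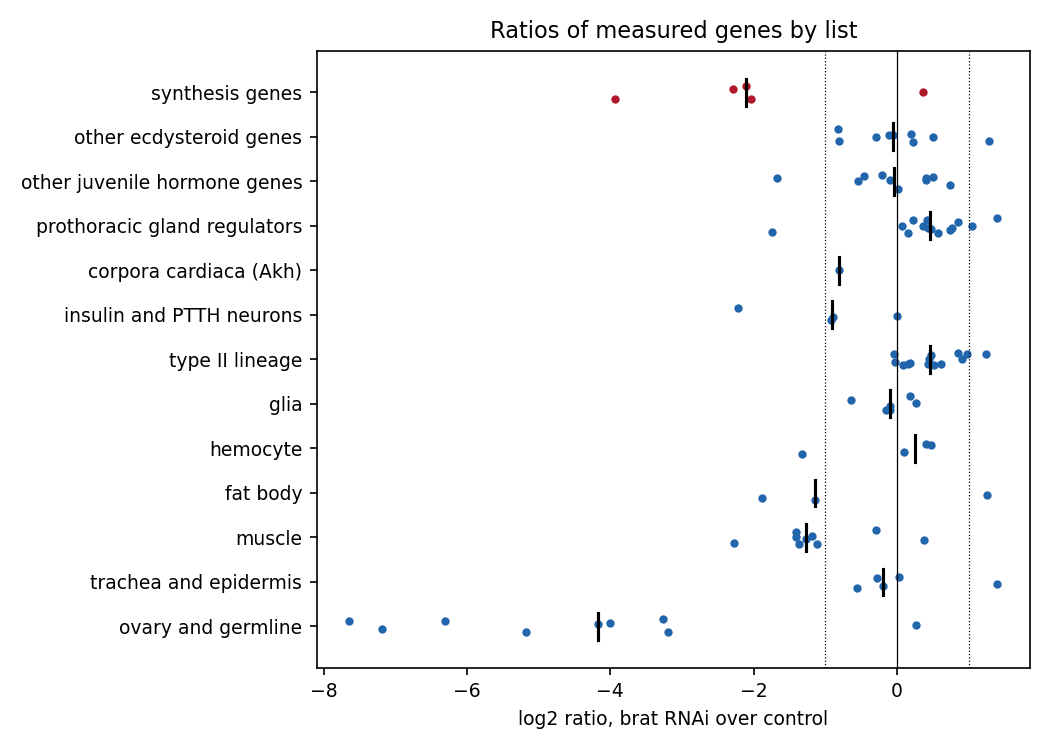
Log2 ratios of brat RNAi over control for the measured genes of 13 lists, 1 point a gene, with the list's median as a black bar and dotted lines at a 2-fold difference. A count of 0 was set to 3 counts. The synthesis genes (red) have a median of -2.11, the other ecdysteroid genes -0.06, the other juvenile hormone genes -0.04 and the ovary and germline genes -4.18.

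Markers of other cells were set beside the synthesis genes, and their part in the result was not tested. Akh, the hormone of the corpora cardiaca, the remaining part of the ring gland, had 79 counts in brat RNAi and 166 in control, at -0.81 (-1.22 to -0.41), and at -0.38 (-0.78 to 0.02) after correction. Relative to phm it stood 2.46-fold (1.67 to 3.61) higher in brat RNAi. Ptth, whose product is released onto the prothoracic gland by brain neurons, had 9 counts in brat RNAi and 50 in control, at -2.21 (-3.42 to -1.17), the only 1 of the 5 listed genes of these neurons and the corpora cardiaca that was at least 2-fold lower. The insulin genes Ilp2 and Ilp5, of neurons that project to the corpora cardiaca, were at -0.89 and -0.92, while Ilp3 was at 0.01 (-0.80 to 0.81), with 26 counts in brat RNAi and 31 in control. Over the 4 genes of insulin-producing and PTTH neurons, normalised counts summed to 1186 in brat RNAi and 2206 in control, and none was at 0.

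Of 9 ovary and female germline genes, 8 were at least 2-fold lower, with osk at 0 in brat RNAi. Summed normalised counts were 257.3 in brat RNAi and 3239 in control. Most of the brat RNAi sum was vas, the gene not lower, at 0.27. It held 191.6 normalised counts in brat RNAi and 158.9 in control. Of 9 measured muscle genes 7 were lower, with a median of -1.27. A further muscle gene, wupA, was at 0 in brat RNAi and had too few counts to be measured. Among all measured genes 4.48% were lower, and 15.6% of those below a mean normalised count of 100. The muscle list summed to 725.9 in brat RNAi and 907.9 in control, and to 204.7 and 506.0 in the same order without Mef2, which also acts outside muscle and was at 0.37. After correction 4 of the 9 were lower. Of 3 measured fat body genes 2 were lower and 1 higher. The 6 listed fat body genes summed to 76.6 in brat RNAi and 137.0 in control. The 6 glial and 4 hemocyte genes had medians of -0.09 and 0.25, with the hemocyte gene He lower, at -1.32, and at -0.82 after correction. A further hemocyte marker, nimC1, was at -0.32. It was missed because its symbol is written in another case, and it is not in that median. Of 5 measured genes of trachea and epidermis, vvl was higher and none lower.

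The correction used above subtracts the median log2 ratio of genes in the same decile of transcript length and then of level. It is given because log2 ratios across 8897 genes went with length (Spearman's rho 0.41) and with level (0.40). Genes are not independent replicates. After correction phm was at -2.00, sad at -1.81, spok at -1.87 and jhamt at -3.49, all still at least 2-fold lower. Among all genes with a length, 2.65% were at least 2-fold lower after correction. The corrected value of dib was 0.59, and its interval (0.08 to 1.09), which holds no error of the correction itself, then lay above 0.

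By the rule for likeness, the 5 genes nearest to phm in log2 ratio were looked for among 1937 measured genes within 2-fold of its mean normalised count. They were RpS5b (-2.08), Cp18 (-2.02), CG4408 (-2.26), cu (-1.78) and Cpr76Bc (-2.47). With 2 libraries this means only a similar ratio.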

How the data were processed

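Poly(A) RNA of sorted cells was sequenced from 1 brat RNAi and 1 control library. The authors deposited raw counts of read pairs per gene. Per the submitters' processing notes, which give no roles, HTSeq, DESeq 1.8.3, TopHat 1.4.1 and BWA 0.6.1 were used. Neither the alignment build nor the counting's strand mode is given in the sources used here. Per the file headers, the authors' deposited table uses FlyBase release 5.44 identifiers and holds base means (a signal: counts normalised by size factor), log2 fold changes with control on top, and adjusted p-values. All 10987 finite log2 values equalled, with the sign turned, those computed here within 1e-06.

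Counts were divided by median-of-ratios size factors. The 5 categories of pairs assigned to no single gene, 27.2% of the brat RNAi and 22.7% of the control table, stayed out. No test is possible with 1 library a group, so ratios carry exact counting intervals (Python 3.11.15, scipy 1.17.1). Scaling alternatives used edgeR 4.0.16. A count of 0 was set to a floor of 3 counts per library. The computation was tested on simulated data. Lengths are median transcript lengths from BDGP6, found for 97.3% of measured genes (nvd by symbol). Since the builds differ, no coordinates are printed. The 7 genes and all lists were chosen with earlier results of these data known. The rule for names took genes at least 2-fold apart and the 2 most abundant of the 3 hormone lists. Names outside it (sro, spo, Cyp18a1, Npc1a, Npc2a, Start1, dare, Fpps, Ilp3, Mef2, vas, tor, EcR and usp) were chosen after their values were seen, as were the gene pairs. One gene of the juvenile hormone list is not reported here and was left out of its counts.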

Additional observations from a re-analysis of the deposited data

Results flagged for a closer look

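Read pairs assigned to no annotated feature enter no comparison. They made up 26.6% of the brat RNAi table and 22.0% of the control table, and are given here because the share lay above that of the control library. With 1 library a group it cannot be said whether such a gap is unusual, and its part in the values of the synthesis genes was not tested.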

How the results depend on the processing

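Each of the 7 log2 ratios kept its sign and stayed inside its counting interval under total count, TMM and upper quartile scaling and after the correction for length and level. For dib, nvd and shd the uncorrected interval includes 0, so the sign gives no direction. The scalings move all genes alike, by at most 0.14, which is too little to turn the sign of any of the 7. The number of synthesis genes at least 2-fold lower was 4 under every setting except a count sum of at least 50, which leaves spok out and gave 3. Leaving out dib and sad for their overlapping models (chosen after their values were seen) also gave 3. That follows from sad being 1 of the 4, so the part of the overlap was not tested by it. The summed log2 ratio moved to -2.23 without dib and to -1.22 without phm, both chosen after their values were seen. Of the 9142 measured genes, 410 stood at least 2-fold lower, against 236 after correction, 214 with a count sum of at least 50, 761 at 1.5-fold and 142 at 4-fold. The 105 at least 2-fold higher became 62 with total count scaling, 191 after correction, 542 at 1.5-fold and 14 at 4-fold. The share of higher against lower genes thus depends on the scaling, and the cause was not tested. No paired analysis was possible because each group has 1 library. For the same reason no library could be left out. Depth limits nvd and shd most, with 6 and 5 counts in all.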

Other observations

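A further 77 P450 genes were found by symbol after the values were seen, and 31 were measured. Of these 31, 9 were at least 2-fold lower and 1 higher in the brat RNAi library. The 31 leave out Cyp6t3, given above, which was also at least 2-fold higher, at 1.29. Among all measured genes 4.48% were lower and 1.15% higher. Below a mean normalised count of 100, where most of the 31 lie, 15.6% of measured genes were lower. The median log2 ratio of the 31 P450 genes was -0.63, and -0.27 after correction for transcript length and level. The most abundant of those lower was Cyp6g2, known from the corpora allata of Drosophila, with 41 counts in brat RNAi and 642 in control, at -3.71 (-4.20 to -3.25). The count ratio of jhamt to Cyp6g2 was 0.0976 in brat RNAi and 0.114 in control, a ratio of 0.858 (exact conditional interval 0.217 to 2.47). Cyp4p2 had 1 count in brat RNAi and 219 in control, while Cyp4p1, with 123 in control, and Cyp6a17, with 37, had 0 in brat RNAi. Of the 31, the one called higher was Cyp4d1, with 20 counts in brat RNAi and 7 in control, at 1.78 (0.48 to 3.26).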
